A study of Mus musculus with 8 samples.

Results

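The genes that make, take up and break down the inhibitory neurotransmitter GABA were examined in bulk RNA-seq of whole mouse brains. The 7 genes were chosen by their known roles and found by symbol among the 24343 genes of the deposited table: Gad1 and Gad2 for synthesis, Slc6a11, Slc6a12 and Slc6a13 for uptake, and Abat and Aldh5a1 for breakdown. All 7 were found, and 6 of them had a mean of at least 1 FPKM (a count of sequenced fragments divided by transcript length and library depth), the minimum for the tests. Slc6a12 lay below that minimum and is described by its levels only.

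The brains came from 3 C57BL/6NCrl mice aged 56 to 62 days, an inbred strain, which were kept on a light and dark cycle with free food and water and received no treatment that the labels name. Mice 1 and 2 gave 3 libraries each and mouse 3 gave 2 libraries, 8 libraries in all. The labels state neither the sex of the mice nor what the library numbers stand for, so the libraries of a mouse may be technical repeats, and the p-values describe differences between these 3 animals and not between conditions. The series holds no second condition, and the only comparison that the labels allow is between animals.

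GABA is made from glutamate in a single step by glutamate decarboxylase, an enzyme that needs pyridoxal phosphate as cofactor. After release it is cleared from the extracellular space by sodium- and chloride-dependent transporters of the Slc6 family on neurons and astrocytes. Inside mitochondria, GABA transaminase passes its amino group to 2-oxoglutarate, and succinic semialdehyde dehydrogenase oxidizes the remaining semialdehyde to succinate, which enters the citric acid cycle. Astrocytes return the carbon to neurons as glutamine, from which neurons form glutamate again.

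The 8 libraries held between 11470000 and 16782000 fragments, as estimated from the step size of the FPKM values, and between 12728 and 13006 genes reached 1 FPKM in each. Mouse 3 stood apart in scale: its FPKM values over the 13001 genes tested summed to 383281 and 408297, against 294165 to 344067 in the other 6 libraries. The tissue label was set against marker genes. Defining genes of GABAergic neurons, astrocytes, leptomeninges and choroid plexus were all detected, whereas 3 of 4 liver and kidney genes (Alb, Umod and Slc34a1) were at 0 in every library and the fourth, Apoa2, averaged 1.47 FPKM.

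Both decarboxylase genes lie on chromosome 2 (coordinates as deposited, build GRCm38): Gad1 at chr2:70562164-70602012 and Gad2 at chr2:22622327-22693877. The 3 transporter genes lie on chromosome 6, with Slc6a11 at chr6:114131241-114249886 and the adjacent pair Slc6a13 and Slc6a12 at chr6:121300296-121337718 and chr6:121346697-121365773. Abat lies at chr16:8513429-8621567 and Aldh5a1 at chr13:24907579-24937661. All 7 are annotated as protein-coding. The table gives 1 RefSeq transcript for each, between 2150 and 5647 nucleotides long, except Abat, which has 2.

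The sequence before the start site is shown for the 3 genes that carry the main contrast in the mouse comparison, Gad1 and Gad2, which were lower in mouse 3, and Slc6a11, which was higher. The windows are the 250 bases before the RefSeq start (RefSeq promoter table, GRCm38.p6, plus strand, 5′ to 3′). Bases that GENCODE annotates as exon of the same gene are left out, so that 163 bases of Gad1 (chr2:70561879-70562041), 128 bases of Gad2 (chr2:22622077-22622204) and all 250 bases of Slc6a11 (chr6:114130991-114131240) are printed. Capitals mark matches, on either strand, to the TATA box core TATAAA, the CCAAT box, the GC box core GGGCGG, the homeodomain core TAATTA or the cyclic AMP response element TGACGTCA.
Gad1: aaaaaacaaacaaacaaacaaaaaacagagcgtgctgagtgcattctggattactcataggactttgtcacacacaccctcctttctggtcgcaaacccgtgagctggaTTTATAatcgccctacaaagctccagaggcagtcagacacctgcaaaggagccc
Gad2: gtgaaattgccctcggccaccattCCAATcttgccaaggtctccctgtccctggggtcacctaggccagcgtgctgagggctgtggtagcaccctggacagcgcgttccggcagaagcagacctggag
Slc6a11: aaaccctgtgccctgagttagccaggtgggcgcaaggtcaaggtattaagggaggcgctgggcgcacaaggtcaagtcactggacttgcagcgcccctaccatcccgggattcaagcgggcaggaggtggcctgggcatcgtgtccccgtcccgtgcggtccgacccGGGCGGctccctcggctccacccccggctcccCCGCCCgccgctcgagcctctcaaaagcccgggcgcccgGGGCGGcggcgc

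In the Gad1 window, a TATAAA match on the minus strand began 141 bases before the RefSeq start, itself 35 bases before the deposited start, and a GGGCGG match began 8 bases before it, in the part not printed. The Gad2 window held a single match, CCAAT at 226 bases. Slc6a11 had 3 GGGCGG matches, at 83, 51 and 12 bases, and no overlap between motifs occurred. Over the 32851 windows of the same length in the table, 12.4% held TATAAA, 33.8% CCAAT, 32.7% GGGCGG, 4.84% TAATTA and 1.55% TGACGTCA. The windows of all 3 genes were richer in G and C than the median window (52.4%), at 58.0% in Gad1, 64.0% in Gad2 and 71.2% in Slc6a11, and held 17, 13 and 25 CpG dinucleotides, respectively, against a median of 6. Members not printed here had windows of mixed content. That of Aldh5a1 stood at 57.2% and 17 CpG dinucleotides. The windows of Slc6a13 ranged from 49.6% to 60.8%, with 2 to 9 CpG dinucleotides. Those of Slc6a12 ranged from 55.6% to 59.6%, with only 2 to 5 CpG dinucleotides. Both decarboxylase genes, which moved together between mice, shared no match. These matches describe letters only. RefSeq windows were found for 6 of the 7 genes, and Abat had none in the table.

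Gad1 encodes the decarboxylase isoform found throughout the neuron, and Gad2 the isoform enriched at nerve terminals. Gad1 was the most abundant of the 7 genes, at 114 ± 26.4 FPKM (SD, n = 3 mice), with 2.00% of all genes higher. Its values were 125, 141 and 136 FPKM in the libraries of mouse 1, 110.3, 129 and 134 FPKM in those of mouse 2, and 92.2 and 76.5 FPKM in those of mouse 3. Both libraries of mouse 3 lay below the other 6.

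Gad2 averaged 36.3 ± 8.02 FPKM (n = 3 mice). The libraries of mouse 1 gave 38.2, 42.0 and 42.2 FPKM, those of mouse 2 gave 42.3, 39.4 and 41.3 FPKM, and those of mouse 3 gave 30.0 and 24.0 FPKM. Mice 1 and 2 overlapped, and mouse 3 was again below both. Per length, Gad1 was 3.14-fold more abundant than Gad2 (log2 ratio of 1.65 ± 0.06, SD, n = 3 mice), at 3.29-, 3.02- and 3.13-fold in mice 1, 2 and 3, and between 2.61- and 3.35-fold in single libraries. The ratio in mouse 3 thus lay between those of the other mice although the level of each gene did not.

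Slc6a11 encodes the GABA transporter of astrocytes. At 89.9 ± 19.5 FPKM (n = 3 mice), it was by far the highest of the 3 uptake genes. It stood at 77.0, 74.8 and 81.8 FPKM in mouse 1, at 76.2, 79.98 and 82.3 FPKM in mouse 2, and at 119.5 and 105 FPKM in mouse 3. The groups of mice 1 and 2 overlapped, and both libraries of mouse 3 were above them.

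Slc6a13, a transporter of GABA and taurine known from the leptomeninges, liver and kidney, was low at 3.94 ± 0.219 FPKM (n = 3 mice), with 39.7% of all genes higher. Its libraries gave 3.62, 4.06 and 4.35 FPKM in mouse 1, 3.75, 2.70 and 4.64 FPKM in mouse 2, and 4.04 and 4.20 FPKM in mouse 3. The widest spread was within mouse 2, whose libraries enclosed those of mouse 3.

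Slc6a12, which encodes a transporter of betaine and GABA, was the lowest at 0.611 ± 0.128 FPKM (n = 3 mice). It gave 0.832, 0.691 and 0.736 FPKM in mouse 1, 0.376, 0.594 and 0.746 FPKM in mouse 2, and 0.423 and 0.591 FPKM in mouse 3. These levels rest on 10 to 29 estimated fragments per library. At the lowest, in library 1 of mouse 2, the 10 fragments have a 95% exact Poisson interval of 4.80 to 18.4, which covers counting error only. The mouse means of 0.753, 0.572 and 0.507 FPKM were not tested against each other. The spread within a mouse (SD of 0.36 on the log2 scale) was close to the counting error of 0.33.

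Abat encodes GABA transaminase, the first step of breakdown. It averaged 94.5 ± 16.2 FPKM (n = 3 mice). The libraries gave 82.3, 82.4 and 87.5 FPKM in mouse 1, 83.0, 88.6 and 87.3 FPKM in mouse 2, and 116 and 110.3 FPKM in mouse 3, so that mouse 3 stood above the other mice. Nearly all of this came from the transcript NM_172961, which carried 97.9% ± 0.695 of the gene (SD, n = 3 mice). The other transcript, NM_001170978, took between 0.00025% and 4.28% of the gene in single libraries, and between 0.00025% and 3.21% within mouse 2 alone. The division of fragments between the pair is an estimate, and the sum is less affected by it.

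Aldh5a1, which encodes succinic semialdehyde dehydrogenase and completes the breakdown, was at 23.0 ± 1.93 FPKM (n = 3 mice). Values were 22.2, 21.3 and 21.9 FPKM in mouse 1, 20.2, 22.4 and 23.0 FPKM in mouse 2, and 27.0 and 23.4 FPKM in mouse 3. The lower library of mouse 3 was just above the highest of the others. The transaminase transcript was 4.09-fold more abundant than that of the dehydrogenase, at 3.85-, 3.95- and 4.503-fold in mice 1, 2 and 3.

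**Figure D1:**
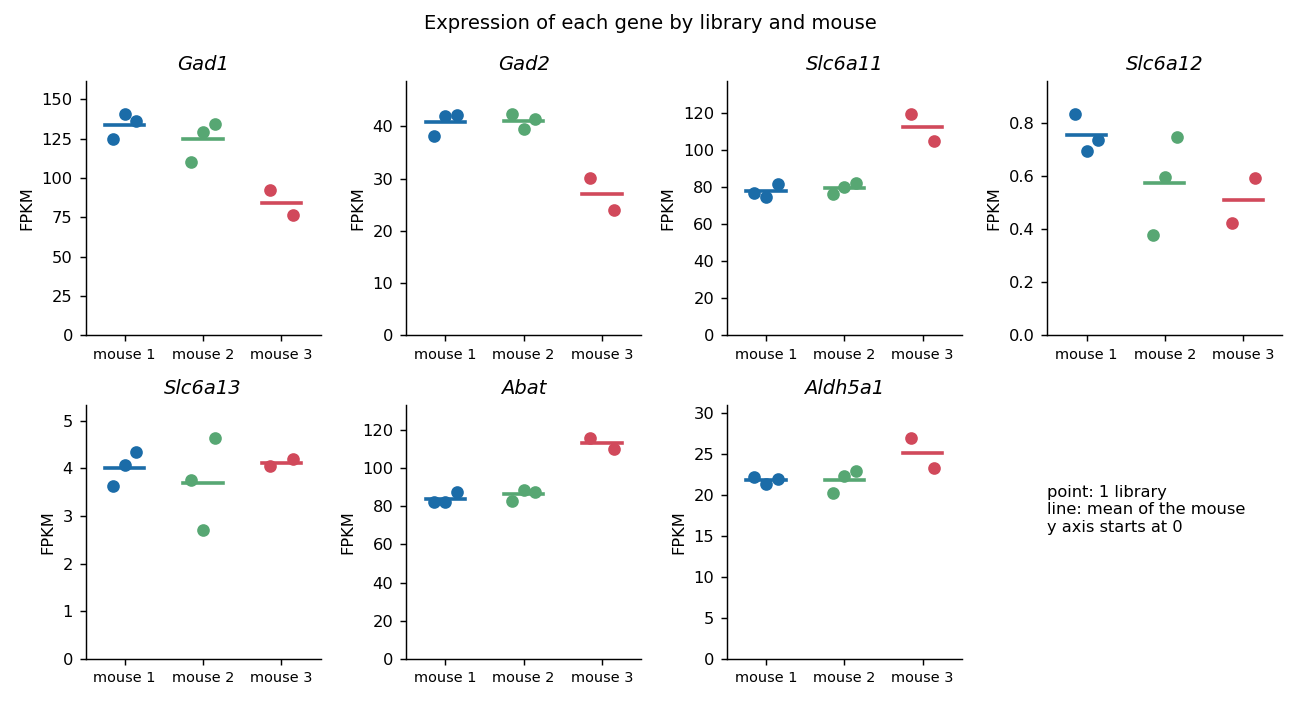
Expression of the 7 genes in FPKM (y axis, from 0) for each library (points) of mice 1, 2 and 3 (x axis), with the mean of each mouse as a line. Gad1 and Gad2 were lower in both libraries of mouse 3, Slc6a11, Abat and Aldh5a1 were higher, and Slc6a12 and Slc6a13 overlapped between mice.

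The order of the levels, per length, was Gad1, Abat, Slc6a11, Gad2, Aldh5a1, Slc6a13 and Slc6a12. The top 3 could not be ordered beyond their spread. Gad1 exceeded Abat in 2 of 3 mice and 6 of 8 libraries (log2 ratio of 0.26 ± 0.60, SD, n = 3 mice), and in mouse 3 the order was turned. Abat exceeded Slc6a11 in 3 of 3 mice and 7 of 8 libraries, but only by 1.06-fold, and their ranges overlapped. From there on, the ranges of the mouse means were separate: Slc6a11 was 2.49-fold above Gad2, Gad2 was 1.55-fold above Aldh5a1, Aldh5a1 was 5.86-fold above Slc6a13, and Slc6a13 was 6.60-fold above Slc6a12, each in 8 of 8 libraries. The smallest of these steps in a single library was that from Gad2 to Aldh5a1, at 1.03-fold in mouse 3, where Gad2 was low. Levels of genes of different length rest on the length correction of FPKM.

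**Figure D2:**
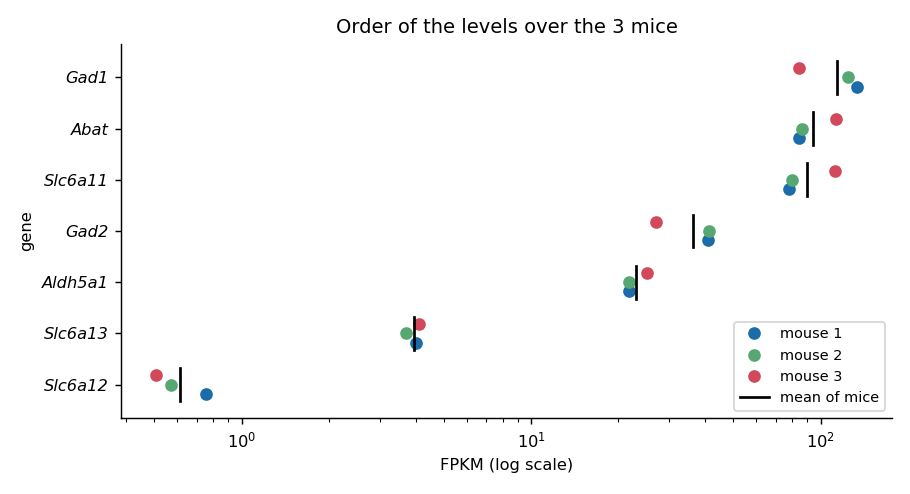
FPKM of the 7 genes on a log axis, with a point for the mean of each mouse and a line for the mean over the 3 mice. Gad1, Abat and Slc6a11 overlap at the top, between 77.9 and 134 FPKM, and Slc6a12 lies lowest, between 0.507 and 0.753 FPKM.

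Uptake and breakdown set against synthesis differed most between the animals. Slc6a11 stood to Gad1 as 0.581 to 1 for mouse 1, as 0.640 to 1 for mouse 2 and as 1.33 to 1 for mouse 3. The ratio of Abat to Gad1 was 0.628, 0.696 and 1.35 in the same order. In both ratios mouse 3 was above 1 and the other mice below it. A ratio of genes within a library does not depend on how the library is scaled.

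The animals were compared with limma on a log2(FPKM + 1) scale, which understates differences of low genes. By the moderated F-test over the 3 mice, 4 of the 6 genes tested differed at an adjusted p under 0.05 (Gad1, Gad2, Slc6a11 and Abat; adjusted over all 13001 genes, adjusted p of 0.0113 to 0.0147), whereas 25.5% of all genes tested did so. Slc6a13 (adjusted p = 0.710) and Aldh5a1 (adjusted p = 0.231) did not pass. Without library 2 of mouse 3, which leaves that mouse with 1 library, 0 of the 6 genes passed the limma F-test (adjusted p of 0.0539 for Slc6a11, 0.0736 for Abat, 0.0890 for Gad2 and 0.124 for Gad1). The range of the mouse means was then 0.61 in place of 0.52 for Slc6a11, 0.46 in place of 0.42 for Abat, 0.44 in place of 0.59 for Gad2 and 0.53 in place of 0.67 for Gad1, all on the log2 scale. The calls were thus lost while the ranges of Gad1 and Gad2 shrank and those of Slc6a11 and Abat grew. Without library 1 of mouse 3 instead, the ranges were 0.80 for Gad1, 0.75 for Gad2, 0.43 for Slc6a11 and 0.39 for Abat. The number of genes called in all was 3310 with all libraries. It was 1835, 1711 and 1635 without library 1, 2 or 3 of mouse 1, respectively.

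Mouse 3 was then compared with the mean of mice 1 and 2, a contrast chosen with earlier results of these data known. Gad1 was 1.53-fold lower in mouse 3, at 84.4 FPKM against 134 and 125 FPKM in mice 1 and 2 (log2 difference of −0.61, SE 0.107, 95% interval −0.86 to −0.37, adjusted p = 0.00468). Gad2 was 1.503-fold lower (−0.59, SE 0.0964, interval −0.81 to −0.37, adjusted p = 0.00378). The fall of both decarboxylase genes was therefore of like size, with widely overlapping intervals. Less transcript per cell and fewer cells that express a gene cannot be told apart in bulk tissue. With 2 genes of 6 lower, the share of all genes tested that were lower was 17.5%.

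Slc6a11 was 1.42-fold higher in mouse 3 (log2 difference of 0.51, SE 0.0806, interval 0.32 to 0.69, adjusted p = 0.00347), and Abat was 1.32-fold higher (0.41, SE 0.0709, interval 0.24 to 0.57, adjusted p = 0.00468). These were the 2 higher genes of 6, and 20.4% of all genes tested were higher. Aldh5a1 was at 25.2 FPKM in mouse 3 against 21.8 and 21.9 FPKM in mice 1 and 2 (0.19, SE 0.0844, interval 0.00 to 0.39, adjusted p = 0.0993) and missed the threshold. Slc6a13 differed by 0.09 (SE 0.143, interval −0.24 to 0.42, adjusted p = 0.647). The interval of Slc6a13 still holds changes of the size seen in Abat. Over the 6 genes, the median difference was 0.14, against 0.02 over all genes tested.

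Counted by library, both libraries of mouse 3 lay above the other 6 for Slc6a11, Abat and Aldh5a1, as for 26.5% of all genes tested. Both lay below for Gad1 and Gad2, as for 21.7% of all genes tested. The shares of the 7 genes are of so few members that they say little against those backgrounds.

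The calls of Gad2, Slc6a11 and Abat in this contrast were kept when any single library was left out (adjusted p at most 0.0336, 0.0192 and 0.0273, respectively). Gad1 was no longer called without library 2 of mouse 3 (−0.48, adjusted p = 0.0543). Scaling the FPKM of each library to the same total (TPM) ended the calls of Slc6a11 (0.21, adjusted p = 0.106) and Abat (0.11, adjusted p = 0.313) and kept those of Gad1 (−0.91) and Gad2 (−0.90). That scaling moved the median difference of all genes by −0.28, from 0.02 to −0.26, and turned the calls over all genes from 2650 higher and 2271 lower to 1025 higher and 5743 lower. Measured against that median, Slc6a11 and Abat were still above the typical gene and Gad1 and Gad2 below it. Aldh5a1 and Slc6a13 changed sign under TPM, at −0.10 and −0.17.

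**Figure D3:**
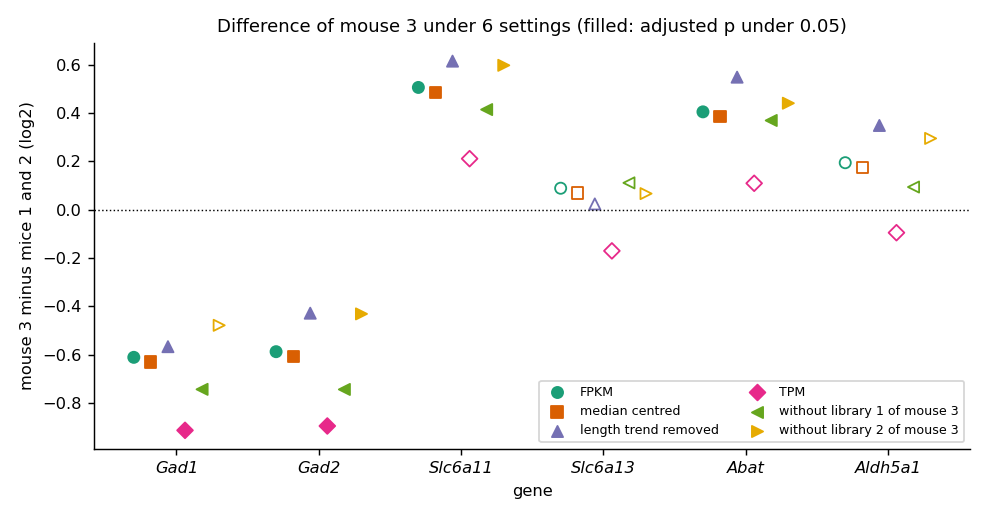
Difference of mouse 3 from mice 1 and 2 (y axis, log2) for the 6 genes tested under 6 settings (symbols), filled where limma's adjusted p was under 0.05. Gad1 and Gad2 lay below 0 and Slc6a11 and Abat above 0 in all settings shown, with the smallest values of Slc6a11 and Abat under TPM (0.21 and 0.11).

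Long transcripts were lower in mouse 3 than short ones: the running median of the difference over genes ordered by length was −0.15 at the length of Aldh5a1 and 0.07 at that of Slc6a13. Relative to genes of like length, Slc6a11 (0.62), Abat (0.55), Gad1 (−0.57) and Gad2 (−0.43) kept their calls, and Aldh5a1 (0.35, limma adjusted p = 0.00545) passed as well. The part of length in the difference of Aldh5a1 was not tested further.

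The other genes of GABA metabolism were taken from a list of 14 (glutamine and glutamate supply, vesicular loading, the cofactor, minor routes and related transporters), all of which were tested. By the F-test 6 of 14 differed between mice, against 25.5% of all genes tested. In mouse 3, 5 were higher (Glul, Glud1, Adhfe1, Aldh9a1 and Maob), 2 were lower, of which Slc6a6 is described, and 7 did not pass. Of all genes tested, 20.4% were higher and 17.5% lower. The median difference of the 14 was 0.18, against 0.02 over all genes. Slc6a6 did not pass the F-test and is named because of its contrast, after its values were seen.

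Glul, the glutamine synthetase of astrocytes, was the highest of these, at 507, 520 and 805 FPKM in mice 1, 2 and 3 (log2 difference of 0.65, limma adjusted p = 0.00146). Glud1, the glutamate dehydrogenase that links glutamate to the citric acid cycle, rose by a like amount (0.64, adjusted p = 0.00188). Both enzymes were thus higher in the mouse in which Slc6a11 and Abat were higher.

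Of the minor routes, Aldh9a1, an aldehyde dehydrogenase that can form GABA from aminobutyraldehyde, was higher (0.45, limma adjusted p = 0.00516), and so was Maob, the monoamine oxidase that acts earlier on the putrescine route (0.34, adjusted p = 0.00777). Adhfe1, which converts the by-product gamma-hydroxybutyrate, was higher (0.63, adjusted p = 0.0110). Slc32a1, the vesicular GABA transporter, was at 35.1, 29.9 and 25.7 FPKM in mice 1, 2 and 3 and did not pass (−0.33, interval −0.61 to −0.05, adjusted p = 0.0651). Its interval includes the −0.59 of Gad2. That outcome depended on the setting. Slc32a1 was lower under TPM (−0.63, limma adjusted p = 0.00326) and with median centring (adjusted p = 0.0286). It was also lower with the length trend removed (adjusted p = 0.0434) and without library 1 of mouse 2 (adjusted p = 0.0140). It did not pass under the other settings that kept both libraries of mouse 3. Among them were the replicate block (−0.28, adjusted p = 0.147) and leaving out any library of mouse 1 (adjusted p of 0.0937 to 0.117). The difference was −0.48 without library 1 of mouse 3 and −0.18 without its library 2. Slc6a6, the taurine transporter, was at −0.33 with a limma adjusted p of 0.0463. This call was lost under most alternatives. Among them were the other pseudocount (adjusted p = 0.0561) and the replicate block (adjusted p = 0.0885). It was also lost on removal of the length trend (−0.15, adjusted p = 0.184). Leaving out any library of mice 1 and 2 ended it too (adjusted p of 0.0520 to 0.0879). TPM kept the call (−0.64, limma adjusted p = 0.00558), as did median centring (adjusted p = 0.0315). A minimum of 5 FPKM (adjusted p = 0.0360) and the mean-variance trend (adjusted p = 0.0389) also kept it. The difference of Slc6a6 was −0.55 without library 1 of mouse 3.

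Under TPM, the calls of Aldh9a1 (0.18, limma adjusted p = 0.0973) and Maob (0.06, adjusted p = 0.592) ended, and those of Glul and Glud1 were kept at 0.35 each. Adhfe1 lost its call with the highest transcript alone (adjusted p = 0.0650). Without library 2 of mouse 3, the contrast was no longer called for Adhfe1 (0.38, adjusted p = 0.123) and Slc6a6 (−0.11, adjusted p = 0.386), 4 of the 14 genes were higher and 0 lower in mouse 3, and 1 of the 14 genes passed the F-test. Under TPM 3 of the 14 were higher and 6 lower, against 1025 higher and 5743 lower of all 13001 genes tested.

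**Figure D4:**
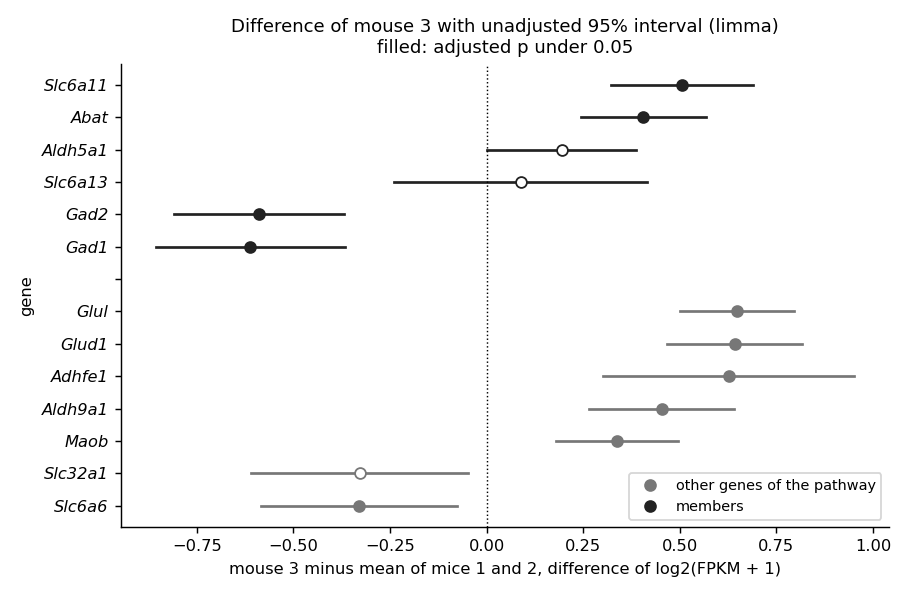
Difference of mouse 3 from the mean of mice 1 and 2 in log2(FPKM + 1) (x axis) with its unadjusted 95% interval from limma, for the 6 genes tested (black) and 7 other genes of the pathway (grey), filled where the adjusted p was under 0.05. The decarboxylase genes lie at −0.61 and −0.59 and Slc6a11 and Abat at 0.51 and 0.41.

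Marker genes of the cell types that carry these genes moved between the mice as well. Of 8 astrocyte markers, 7 were higher in mouse 3 and none lower (Aqp4, Gja1, Gfap, Slc1a2, Slc1a3, Aldh1l1 and Gjb6; median difference of 0.51), and the list summed to 893 and 919.6 FPKM in mouse 3 against 597 to 647 FPKM in the others. Slc6a11 differed by the same 0.51. Of all genes tested, 20.4% were higher. The median of the 8 markers was 0.53 without library 1 of mouse 3 and 0.52 without its library 2. Under TPM 3 of the 8 were higher (median of 0.22), against 1025 of all 13001 genes tested. The part of astrocyte RNA in the differences of Slc6a11 and Abat was not tested.

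Of all genes tested, 17.5% were lower and 20.4% higher in mouse 3. Of 10 markers of GABAergic neurons, 4 were lower (the transcription factor genes Dlx1, Dlx2, Dlx5 and Dlx6). Of the 10, 1 was higher (Pvalb, which the Purkinje cell list also holds), and the median was −0.23. Their summed level was higher in mouse 3, at 444 and 543 FPKM against 294 to 425 FPKM, since Sst and Pvalb make up most of it. The counts depended on the setting. Once the length trend was removed, 7 of the 10 were lower and 0 higher (median of −0.43). Of all 13001 genes tested, 2004 were then lower and 2165 higher. Under TPM 7 of the 10 were lower and 1 higher (median of −0.52). All genes tested then held 5743 lower and 1025 higher, with a median of −0.26. Without library 2 of mouse 3 the median of the 10 was −0.15. Of 8 genes of striatal spiny neurons, which are GABAergic, Ppp1r1b and Rgs9 were lower and Tac1 was higher (median of −0.21; sums of 261 and 288 FPKM against 259 to 311 FPKM). Without library 2 of mouse 3 the median of the 8 was −0.03. Under TPM 7 of the 8 were lower and 0 higher (median of −0.51), beside the same shift of all genes. Of 5 Purkinje cell genes, Pcp2 and Pvalb were higher and Calb1 was lower (median of 0.46; sums of 427.8 and 624.6 FPKM against 344.7 to 401.4 FPKM), and without library 2 of mouse 3, 0 were higher and 1 was lower (median of 0.24). The part of any of these cell types in the fall of Gad1 and Gad2 was not tested.

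For Slc6a13 and Slc6a12, the meninges and choroid plexus are the relevant tissues. The 9 leptomeningeal genes summed to 56.7 and 57.5 FPKM in mouse 3, within the 54.5 to 62.5 FPKM of the other libraries, and 1 of 9 was lower (Col1a2), against 0 lower and 1 higher without library 2 of mouse 3. The 5 choroid plexus genes ranged from 322 to 552 FPKM in mice 1 and 2 and were at 435 and 566 FPKM in mouse 3, with Kl lower and none of the 5 called without library 2 of mouse 3. These sums, like the levels of Slc6a13, thus did not set mouse 3 apart.

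**Figure D5:**
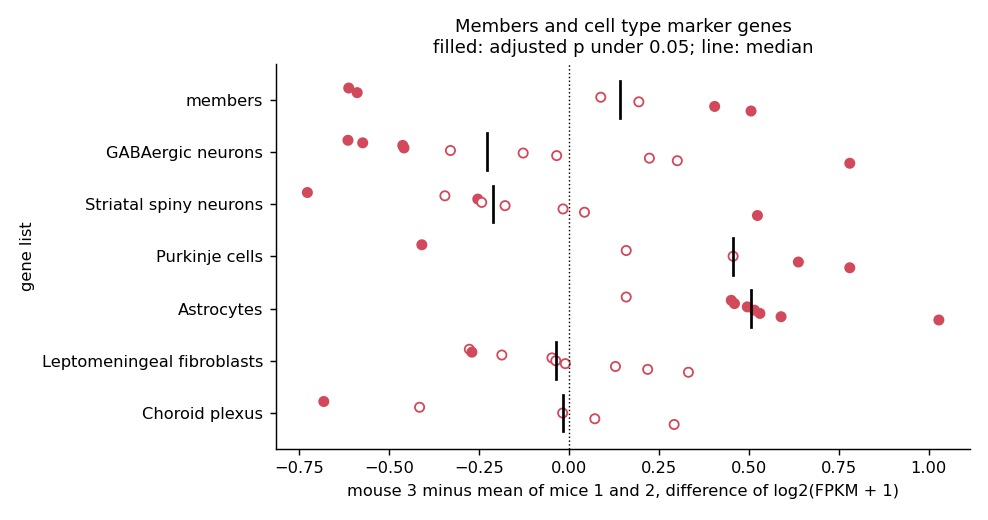
Difference of mouse 3 from the mean of mice 1 and 2 in log2(FPKM + 1) (x axis) for the genes described (members) and for lists of marker genes by cell type (y axis), with a point for each gene, filled where limma's adjusted p was under 0.05, and a line at the median of each list. Astrocyte markers lie to the right (median of 0.51), and those of GABAergic neurons spread to both sides (median of −0.23).

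Genes whose levels followed each member over the 8 libraries were ranked by Pearson's r of log2(FPKM + 1) among 8781 genes with at least 5 FPKM. The libraries share animals, scaling and length effects, so r is a description only. Gad2 was closest to Usp7 (r = 0.997), a ubiquitin protease, and Raph1 (r = 0.996). Gad1 and Gad2 followed each other at r = 0.929, which 695 other genes exceeded for Gad1 and 785 for Gad2.

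Slc6a11 was closest to Timp3 (r = 0.995), a metalloproteinase inhibitor, and Acot11 (r = 0.993). Abat was closest to Slc6a11 itself, with r = 0.990 and 0 of the candidates higher, then to Tns3 (r = 0.990) and Daam2 (r = 0.989). The astrocytic transporter and the transaminase were therefore the pair of members most alike across libraries. Aldh5a1 was closest to Plxnb1 (r = 0.987) and Dab2ip (r = 0.980), and reached r = 0.891 with Slc6a11. For Slc6a13 the closest were Tceb3 (r = 0.942) and Dpp3 (r = 0.899), and its r with the other members ranged from −0.13 to 0.24.

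The precision of the levels differed with abundance. Gad1 rested on 3328 to 6885 estimated fragments per library, Slc6a11 on 3337 to 6433, Abat on 4176 to 7152, Gad2 on 1877 to 3825 and Aldh5a1 on 1252 to 2046, whereas Slc6a13 had 71 to 141. The SD between libraries of a mouse was 0.14 for Gad1, 0.12 for Gad2, 0.08 for Slc6a11, 0.05 for Abat and 0.09 for Aldh5a1 on the log2 scale, above the counting error of 0.02 to 0.03 in each. For Slc6a13 it was 0.26 against a counting error of 0.14. In the 6 genes tested, the spread within a mouse thus exceeded the counting error. Between mice, the coefficient of variation was 23.1% for Gad1, 22.1% for Gad2, 21.6% for Slc6a11 and 17.1% for Abat, above the median of 12.3% over all genes tested, and 8.41% for Aldh5a1 and 5.55% for Slc6a13, below it.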

How the data were processed

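Bulk RNA-seq of whole brain was measured in 8 libraries of 3 mice. Total RNA was isolated with a column kit and libraries were made from mRNA with a Kapa HyperPrep kit; read length and strand setting are not given in the sources used here. TopHat, Cufflinks and the build mm10 are named in the submitters' processing notes. The deposited FPKM values were estimated by the authors per library for 34535 RefSeq transcripts, and each value carries confidence bounds and a status, which was OK for all members. The deposited coverage, a signal of estimated depth per base of transcript, was used only for depth.

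FPKM values were summed per gene, averaged per mouse and then over the 3 mice. Fragment numbers were recovered from the steps of low FPKM values (between 92.3% and 94.9% of them lay within 0.1 of a whole multiple) and are estimates, with exact Poisson intervals that cover counting error only. Differences were tested with limma 3.58.1 (R 4.3.3) on log2(FPKM + 1) in the 13001 genes whose mean reached 1 FPKM, by a moderated F-test and by a contrast of mouse 3 with the mean of mice 1 and 2. Benjamini-Hochberg adjustment ran over all genes tested, with a threshold of 0.05. The test was checked on simulated data. Members were named by symbol. Other pathway genes were named where they passed the F-test, with Slc32a1 always named, and likeness was limited to the 2 closest genes of each member; some of the genes that these rules take are not reported here. The members, lists and contrast were chosen with earlier results of these data known. Alternatives were another pseudocount, no minimum and a minimum of 5 FPKM, the highest transcript, TPM, median centring, removal of the length trend, a mean-variance trend, a replicate block and leaving out each library.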

Additional observations from a re-analysis of the deposited data

Results flagged for a closer look

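Aldh5a1 was at 27.0 FPKM in library 1 of mouse 3. Its distance to the next library was 0.539 of the range over the 8 libraries, above the 95% limit of 0.526 for a single value that stands apart from 8. About 1 in 20 sets of 8 independent values would pass this limit by chance. The libraries are grouped in 3 mice, and library 2 of mouse 3 (23.4 FPKM) was the next highest, so that rate holds only roughly here. The 7 genes were all examined.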

How the results depend on the processing

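Levels were recomputed with the highest transcript, a plain mean over libraries, median centring, the length trend removed and each library left out. They moved by less than the SD between mice, as did the ratio of Gad1 to Gad2. Median centring was not run for that ratio, and neither it nor removal of the length trend for Slc6a12. Levels were not recomputed under TPM. With each library left out in turn, the genes of the set that differed between mice numbered 0 to 4, all genes 126 to 3860, the genes of the set in the contrast of mouse 3 3 to 4, and all genes in that contrast 1492 to 5493; the lowest of each came without library 2 of mouse 3. The F-test count of all genes was also lower by over 1.5 times without library 1, 2 or 3 of mouse 1 (1835, 1711 and 1635). Under TPM 2 of the 6 genes passed either test (Gad1 and Gad2) and 5493 genes the F-test, and Slc6a13 (−0.17) and Aldh5a1 (−0.10) turned direction, both uncalled. With the length trend removed, Aldh5a1 passed (0.35, limma adjusted p = 0.00545). The cause was not tested in either case. Same-numbered libraries of different mice correlated at 0.00 to 0.11 in their deviations from the mouse means (7 pairs). Those with different numbers correlated at −0.13 to 0.06 (14 pairs). These ranges overlapped, so the numbers were not shown to pair the libraries. With library number as a replicate block, 4 of the 6 genes passed each test, and 2995 and 4564 of all genes. Depth limits Slc6a12, with 10 to 29 fragments per library, and Slc6a13. With 3 animals of 1 condition, none of the differences can be extended beyond them.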
